A study of Homo sapiens with 12 samples.

Results

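The 9 genes described here encode transcription factors that set endodermal and intestinal identity: CDX1, CDX2, HNF4A, GATA6, FOXA1, FOXA2, SOX2, SOX9 and KLF5. They were chosen by name, out of 60617 gene identifiers. FOXA2 was chosen by its level, since it had been seen to be absent from 1 of the lines, and the other 8 were chosen by role. The parental cells are HCT 116p53-/-, human colorectal cancer cells without p53, and uL3ΔHCT 116p53-/- is a sub-line made from them. Bulk RNA of both was sequenced. The paper describes the sub-line as stably silenced for uL3 and the labels describe it as an RPL3 knockout, RPL3 being the gene of the ribosomal protein uL3. Cells of each line received vehicle or 5 nM Act D (actinomycin D, which at low doses blocks rRNA synthesis) for 24 h, so that the libraries form 4 groups of 3, all without p53. The labels call the libraries of a group biological replicates, and the number of clones behind the sub-line is not given in the sources used here. With 1 sub-line, uL3 status and any other difference between the lines cannot be told apart.

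In the embryo some of these factors divide the gut tube into regions. CDX2 and its relative CDX1 are caudal-type homeobox factors of the posterior endoderm and of the adult intestine, and SOX2 marks the anterior part that gives rise to oesophagus, lung and stomach. GATA6, FOXA1, FOXA2 and HNF4A act in endoderm of the whole tube and in the organs derived from it, and SOX9 and KLF5 are known for their roles in the dividing cells of intestinal crypts.

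The total per library was between 10087925 and 21138886 RSEM expected counts. RPL3 was between 1112 and 1337 CPM (counts per 1000000, scaled with TMM factors) in the 12 libraries, and it was not lower in the sub-line, where it differed by 0.13 on the log2 scale with vehicle (standard error 0.08, adjusted p = 0.155) and by 0.12 with Act D (standard error 0.08, adjusted p = 0.187). No loss of the RPL3 transcript was therefore seen to go with the label, and the sub-line is named below by that label, as the uL3Δ-labelled libraries. Genes were tested with edgeR (quasi-likelihood test), each adjusted p is a Benjamini-Hochberg value over the 15692 genes tested, and a gene was called at an adjusted p under 0.05.

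The label of an epithelial colorectal line was compared with marker genes. In parental cells with vehicle the 8 epithelial markers had a summed level between 2643 and 2852 CPM and each was above 1 CPM. In the uL3Δ-labelled libraries with vehicle the sum was between 1599 and 1793 CPM, most of it from the keratins KRT8 and KRT18, and 3 of the 8 genes were under 1 CPM, among them the cadherin CDH1 (0.445 CPM) and the transcription factor GRHL2 (0.0892 CPM). The 12 fibroblast or mesenchymal markers summed to between 58.5 and 70.9 CPM in parental cells and to between 2592 and 2672 CPM in the uL3Δ-labelled libraries with vehicle, most of it VIM at 2237 CPM, and none of the 12 was at 0 counts in either line. Of 6 immune markers 2 passed the filter on low counts, CD68 and LYZ, and both were higher in the uL3Δ-labelled libraries (with vehicle CD68 was at 9.30 and 24.8 CPM, and LYZ at 0.956 and 6.36 CPM), while the defining leukocyte genes PTPRC and CD3E did not pass. The 4 endothelial markers summed to under 2.09 CPM in each library. With either treatment 7 of the 8 epithelial markers were called lower in the uL3Δ-labelled libraries and 1 higher. Of the 9 mesenchymal markers tested 7 were called higher and 1 lower. Over all genes tested 71.3% were called with vehicle and 70.4% with Act D. With vehicle 4 of the 12 mesenchymal markers were under 1 CPM in the uL3Δ-labelled libraries. This incomplete shift from epithelial to mesenchymal markers moves with every difference between the lines given below, and its part in them was not tested. In bulk RNA, fewer cells that express a gene and less RNA of it per cell cannot be told apart.

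Of the 9 genes, 8 passed the filter on low counts. The lines differed most in CDX2 and HNF4A, which were nearly silent in the uL3Δ-labelled libraries, and in FOXA2 and SOX2, which were nearly silent in parental cells. CDX2 and HNF4A passed the filter through the parental cells, and SOX2 through the uL3Δ-labelled libraries. The directions of CDX2, HNF4A and SOX2 in the counts below therefore follow in part from the filter. KLF5, GATA6, SOX9 and FOXA1 were read in all 12 libraries and differed less. Apart from FOXA2, 7 of the 7 genes tested were called with vehicle, 3 as higher and 4 as lower in the uL3Δ-labelled libraries, against 71.3% of all genes tested (35.1% higher and 36.2% lower). With Act D 7 of these 7 were called as well, with the same 3 higher and 4 lower, against 70.4% of all genes tested (35.1% higher and 35.3% lower). The groups did not overlap for 6 of the 7 with vehicle and for 7 with Act D, against 72.5% and 74.1% of all genes tested. Most genes of these cells differed between the lines, and the share of called genes among the 7 is therefore not a result about them; what differed from gene to gene was the size and the direction.

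**Figure D1:**
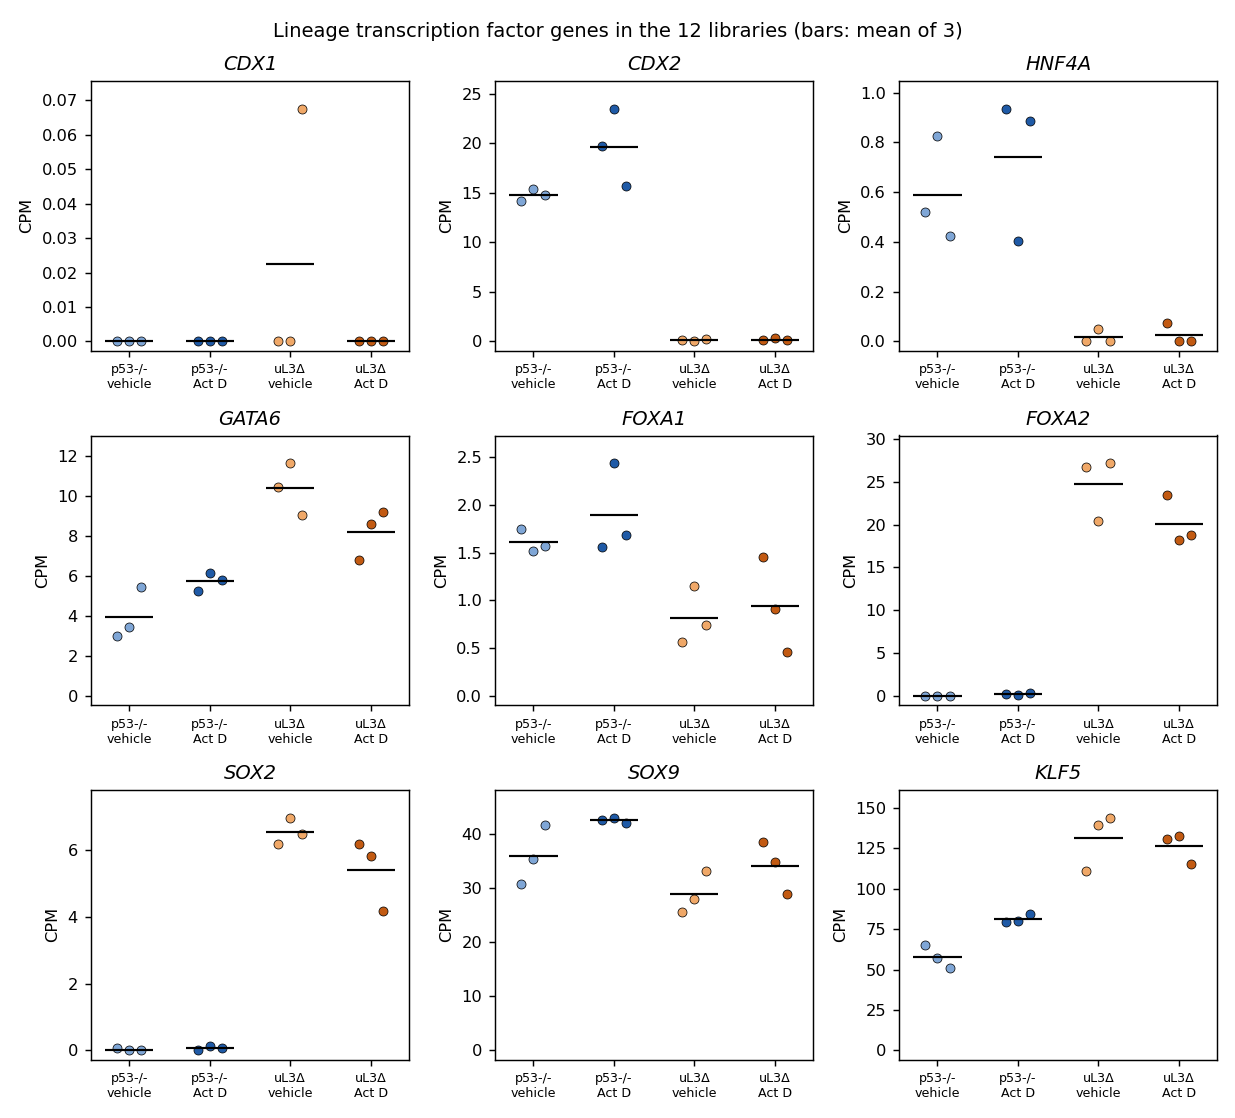
Level of each of the 9 genes in CPM (linear axes that differ between panels) in the 3 libraries of each group, with the group mean as a bar; p53-/- stands for the parental HCT 116p53-/- cells and uL3Δ for the uL3Δ-labelled libraries. CDX2 and HNF4A lie near 0 in the uL3Δ-labelled libraries, FOXA2 and SOX2 lie near 0 in parental cells, and CDX1 has 1 count in 1 library.

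CDX2 (ENSG00000165556, hg38, chromosome 13, 27960918 to 27969315, minus strand) was at 14.2, 15.4 and 14.8 CPM in the 3 vehicle libraries of parental cells and at 0.161, 0.10 and 0.270 CPM in those labelled uL3Δ. These last values rest on 2, 2 and 4 counts, and no library labelled uL3Δ came near any library of the other line. The difference was -6.37 on the log2 scale (standard error 0.48, adjusted p = 1.11e-12), or 82.8-fold. With Act D CDX2 was at 19.7, 23.5 and 15.7 CPM in parental cells against 0.145, 0.343 and 0.116 CPM, a difference of -6.61 (standard error 0.55, adjusted p = 1.86e-12). The remaining counts of CDX2 in the uL3Δ-labelled libraries amount to 1.2% of its parental level with vehicle and to 1.03% with Act D. The other caudal-type gene, CDX1 (ENSG00000113722, chromosome 5, 150166778 to 150184558, plus strand), had 1 count in replicate 3 of the uL3Δ-labelled libraries with vehicle and 0 counts in the other 11 libraries. It was not tested, and its level was not above the 3 counts per library taken as the limit of detection, which correspond to between 0.15 and 0.348 CPM. CDX2 was thus the caudal-type gene read in parental cells, and neither was read above that limit in the uL3Δ-labelled libraries, apart from 4 counts of CDX2 in 1 of them.

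HNF4A (ENSG00000101076, chromosome 20, 44355699 to 44432845, plus strand), a nuclear receptor of liver and gut epithelium, had few counts. Parental cells with vehicle gave 8, 12 and 7 counts, or 0.519, 0.826 and 0.423 CPM, and the uL3Δ-labelled libraries gave 0, 1 and 0 counts. The ratio of the 2 lines with vehicle was 27.4, with a 95% counting interval from 4.52 to 1123 (adjusted p = 0.000250). With Act D the counts were 15, 6 and 11 in parental cells and 1, 0 and 0 in the uL3Δ-labelled libraries, a ratio of 23.0 (95% counting interval 3.85 to 937, adjusted p = 0.000459). HNF4A, which passed the filter through the parental cells, differed in the same direction as CDX2. The upper end of its fold could not be set at this depth. It was tested in 11 alternatives for each line difference, and its call was kept in each.

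FOXA2 (ENSG00000125798, chromosome 20, 22580998 to 22585455, minus strand), a forkhead factor of the endoderm, showed the opposite pattern, and its line differences are given as a description because they chose the gene. It had 0 counts in the 3 vehicle libraries of parental cells and 332, 409 and 402 counts in those labelled uL3Δ, or 26.7, 20.5 and 27.1 CPM. Against a limit of 3 counts per library it was at least 119.8-fold higher in the uL3Δ-labelled libraries with vehicle. With Act D it had 3, 2 and 4 counts in parental cells and was at 23.4, 18.2 and 18.8 CPM in the uL3Δ-labelled libraries, and no fold is given against counts at the limit of detection. The relative of FOXA2 among the 9 genes is FOXA1 (ENSG00000129514, chromosome 14, 37589552 to 37596059, minus strand). With vehicle FOXA1 was at 1.75, 1.52 and 1.57 CPM in parental cells and at 0.562, 1.15 and 0.743 CPM in the uL3Δ-labelled libraries (log2 difference -0.93, standard error 0.40, adjusted p = 0.0412). With Act D it was at 1.56, 2.43 and 1.69 CPM against 1.45, 0.914 and 0.464 CPM (log2 difference -0.93, standard error 0.41, adjusted p = 0.0470). The groups did not overlap under either treatment, but both calls of FOXA1 stand close to the threshold. They were lost in 7 of 13 alternatives each, where the adjusted p reached 0.128 with vehicle and 0.179 with Act D. With vehicle these were DESeq2, no filter on low counts and the omission of any parental library or of uL3Δ-labelled replicate 1 or 3. With Act D they were DESeq2, no filter, the replicate block, the fit to these groups alone and the omission of parental replicate 2 or of uL3Δ-labelled replicate 2 or 3.

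SOX2 (ENSG00000181449, chromosome 3, 181711925 to 181714436, plus strand), a factor of the anterior gut and of pluripotent cells, was read almost only in the uL3Δ-labelled libraries. With vehicle it had 1, 0 and 0 counts in parental cells and was at 6.19, 6.96 and 6.48 CPM in the uL3Δ-labelled libraries. The ratio was 307 (95% counting interval 54.7 to 12170, adjusted p = 3.14e-10), and SOX2 passed the filter through the uL3Δ-labelled libraries. With Act D it had 0, 2 and 1 counts in parental cells against 6.18, 5.82 and 4.17 CPM, a ratio of 79.7 (95% counting interval 26.8 to 390.3, adjusted p = 2.20e-09). SOX2 lies inside SOX2-OT, a long non-coding gene on the same strand, which did not pass the filter and had between 3 and 9 counts in each library of both lines.

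GATA6 (ENSG00000141448, chromosome 18, 22169589 to 22202528, plus strand), a zinc-finger factor of endoderm, was higher in the uL3Δ-labelled libraries. With vehicle it was at 2.98, 3.44 and 5.43 CPM in parental cells and at 10.4, 11.6 and 9.05 CPM in the uL3Δ-labelled libraries, without overlap. The difference was 1.39 on the log2 scale (standard error 0.20, adjusted p = 7.16e-06), or 2.61-fold. With Act D the groups came closer, at 5.23, 6.15 and 5.79 CPM against 6.76, 8.57 and 9.16 CPM, and the difference was 0.50 (standard error 0.21, adjusted p = 0.0386). That smaller difference was lost in 7 of 13 alternatives (adjusted p up to 0.290), among them library size alone, no filter on low counts and the omission of any Act D library other than replicate 1 labelled uL3Δ.

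KLF5 (ENSG00000102554, chromosome 13, 73054976 to 73077541, plus strand), a Krüppel-like factor of dividing epithelial cells, had the highest level per length of the 9 genes. With vehicle it was at 65.1, 57.2 and 51.0 CPM in parental cells and at 110.6, 139.5 and 143.7 CPM in the uL3Δ-labelled libraries, a difference of 1.19 on the log2 scale (standard error 0.11, adjusted p = 1.91e-08), or 2.27-fold. With Act D the levels were 79.4, 79.9 and 84.4 CPM against 130.8, 132.6 and 115.3 CPM, a difference of 0.64 (standard error 0.11, adjusted p = 4.01e-05), or 1.56-fold. The lines did not overlap under either treatment.

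SOX9 (ENSG00000125398, chromosome 17, 72121020 to 72126416, plus strand), a factor of crypt stem and Paneth cells, differed least. With vehicle it was at 30.9, 35.5 and 41.7 CPM in parental cells and at 25.5, 28.0 and 33.2 CPM in the uL3Δ-labelled libraries, and the groups overlapped. The difference was -0.32 on the log2 scale (standard error 0.13, adjusted p = 0.0326), or 1.24-fold. With Act D it was at 42.6, 43.0 and 42.1 CPM against 38.6, 34.8 and 29.0 CPM, a difference of -0.31 (standard error 0.13, adjusted p = 0.0371). Both calls were close to the threshold and were lost in 5 and 4 of 13 alternatives, with an adjusted p of up to 0.188 and 0.106. With vehicle these were the fit to the groups compared alone and the omission of replicate 2 or 3 of the parental cells or of replicate 1 or 2 labelled uL3Δ. With Act D they were the replicate block and the omission of replicate 1 or 2 of the parental cells or of replicate 3 labelled uL3Δ.

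The order of the genes within a group was read from the deposited TPM (transcripts per 1000000, which corrects for transcript length). In parental cells with vehicle KLF5 stood at 14.8 ± 2.67 TPM (SD, n = 3), followed by SOX9 at 7.13 ± 1.01, CDX2 at 4.73 ± 0.443, GATA6 at 0.807 ± 0.263, FOXA1 at 0.413 ± 0.0764 and HNF4A at 0.160 ± 0.0557, with no overlap between neighbours. SOX2, CDX1 and FOXA2 came last and were not told apart. In the uL3Δ-labelled libraries with vehicle KLF5 was again the highest, at 23.2 ± 2.68 TPM. FOXA2 at 5.88 ± 1.57 and SOX9 at 4.05 ± 0.690 overlapped in the next place, and so did GATA6 at 1.51 ± 0.222 and SOX2 at 1.47 ± 0.121. FOXA1 at 0.143 ± 0.0208 and CDX2 at 0.0733 ± 0.0473 TPM lay below them. Of the 15692 genes tested, 48.7% had a lower TPM than CDX2 in parental cells with vehicle and 61.0% had a lower TPM than FOXA2 in the uL3Δ-labelled libraries.

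**Figure D2:**
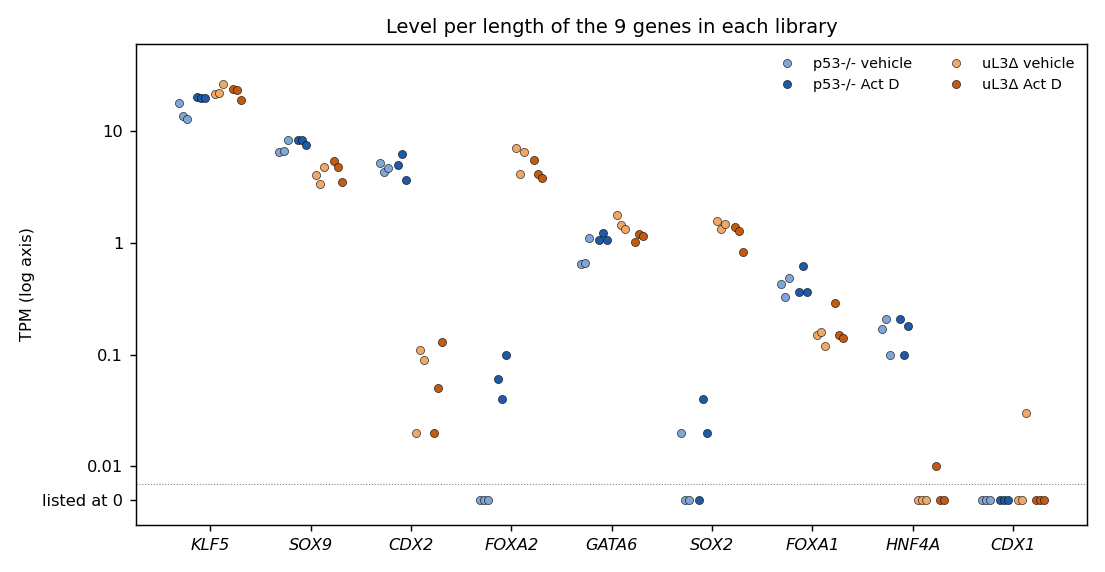
Level per length of the 9 genes in TPM (log axis) in every library, coloured by group, with values listed at 0 drawn below the dotted line. KLF5 is the highest in each group. With vehicle CDX2 has a mean of 4.73 TPM in parental cells and 0.0733 TPM in the uL3Δ-labelled libraries, where FOXA2 has a mean of 5.88 TPM and SOX2 of 1.47 TPM.

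For the 6 genes with an entry in the RefSeq table of start sites (build GRCh38.p14), 250 bases before each start were read, and 5 windows are printed because CDX2 and SOX2 are among the genes with the largest differences and the starts of KLF5 and HNF4A can be set beside transcript values. Capitals mark matches, on either strand, to the letters known for each family. AGATAA stands for GATA factors such as GATA6, TGTTTAC for forkhead factors and CNATAAA for caudal-type factors. AACAAT stands for factors of the SOX family and GGGCGG for the GC box. The table has no entry for CDX1, FOXA2 and SOX9. The windows are at chr13:27969316-27969565 (CDX2, minus strand), chr3:181711675-181711924 (SOX2, plus strand), chr20:44400989-44401238 (HNF4A downstream start, plus strand), chr13:73054726-73054975 (KLF5 upstream start, plus strand) and chr13:73058755-73059004 (KLF5 downstream start, plus strand).
CDX2: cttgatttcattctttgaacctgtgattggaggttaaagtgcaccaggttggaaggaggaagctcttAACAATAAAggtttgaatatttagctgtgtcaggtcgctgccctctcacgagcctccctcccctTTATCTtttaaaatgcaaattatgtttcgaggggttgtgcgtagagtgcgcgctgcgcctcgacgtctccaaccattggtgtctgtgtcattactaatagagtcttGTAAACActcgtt
SOX2: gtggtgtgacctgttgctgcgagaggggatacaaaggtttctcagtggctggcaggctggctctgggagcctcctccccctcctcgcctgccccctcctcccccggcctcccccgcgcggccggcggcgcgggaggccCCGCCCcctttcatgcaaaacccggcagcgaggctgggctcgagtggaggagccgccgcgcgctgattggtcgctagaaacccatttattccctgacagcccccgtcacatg
HNF4A downstream start: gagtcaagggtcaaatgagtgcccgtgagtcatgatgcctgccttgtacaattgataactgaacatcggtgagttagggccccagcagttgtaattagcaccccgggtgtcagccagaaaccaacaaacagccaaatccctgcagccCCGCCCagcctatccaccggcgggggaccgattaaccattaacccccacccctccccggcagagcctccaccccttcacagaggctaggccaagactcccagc
KLF5 upstream start: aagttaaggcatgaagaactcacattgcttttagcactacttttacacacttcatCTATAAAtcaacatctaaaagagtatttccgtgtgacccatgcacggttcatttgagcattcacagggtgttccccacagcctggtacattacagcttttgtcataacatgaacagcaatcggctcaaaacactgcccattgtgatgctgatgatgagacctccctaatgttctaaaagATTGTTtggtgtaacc
KLF5 downstream start: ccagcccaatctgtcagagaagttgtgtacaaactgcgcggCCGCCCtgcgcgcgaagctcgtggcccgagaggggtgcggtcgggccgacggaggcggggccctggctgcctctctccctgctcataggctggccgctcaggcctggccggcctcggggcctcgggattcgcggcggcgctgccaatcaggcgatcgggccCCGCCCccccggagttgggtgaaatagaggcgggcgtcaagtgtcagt

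The window of CDX2 holds 1 match each to the GATA, forkhead, caudal and SOX letters, the last 2 of which overlap, and has a GC content of 45.2%. Among 35116 windows of this length these letters were found in 9.17%, 2.98%, 8.93% and 8.98%. The window of SOX2 has a GC content of 68.8% and holds 1 GC box, which was found in 42.6% of all windows, and none of the other letters. The upstream window of KLF5 (GC content 40.8%) holds 1 caudal and 1 SOX match, whereas its downstream window (70.8%) holds 2 GC boxes. A match is only a run of letters, and binding was not measured.

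Transcript values were used for 1 library, replicate 2 of parental cells with vehicle. In it the KLF5 transcript that begins at the upstream start (chromosome 13, 73054976) had 516 of the KLF5 counts (65.1% of the gene's transcripts by RSEM) and the transcript that begins at the downstream start (73059005) had 315 (34.7%). The 12 counts of HNF4A fell on transcripts that begin at 44401284 (3.68 counts) and 44401399 (8.32 counts), close to the downstream start, and none fell on the transcripts that begin at 44355699 to 44355805. HNF4A is known to be transcribed from an upstream and a downstream promoter, and with 12 counts a minor use of the upstream promoter was not detectable. The coding transcript of CDX2 had 208 of the CDX2 counts (59.7% of the gene's transcripts by RSEM). A shorter transcript without a defined coding sequence had 15.0 counts (40.3%). The TPM of CDX2 in this library is therefore not that of the coding transcript alone.

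The response to Act D was tested within each line. In parental cells 1 of the 7 genes other than FOXA2 was called, KLF5, which was higher with Act D, against 18.7% of all genes tested. SOX2 passed the filter through the uL3Δ-labelled libraries and had at most 2 counts in any parental library, where its response was hardly detectable. KLF5 rose from 57.8 ± 7.10 to 81.2 ± 2.74 CPM (SD, n = 3 each), without overlap, by 0.49 on the log2 scale (standard error 0.11, adjusted p = 0.00383), or 1.41-fold. FOXA2 had 0 counts in each vehicle library and 3, 2 and 4 counts with Act D. The vehicle values chose the gene and left only a rise possible, so that its response in parental cells is given without a test. CDX2 was at 14.8 ± 0.581 CPM without and 19.6 ± 3.89 CPM with Act D (log2 difference 0.41, standard error 0.15, adjusted p = 0.0666), and was called without Act D replicate 3, under upper-quartile scaling and in the fit to these 2 groups alone. GATA6 differed by 0.52 (standard error 0.21, adjusted p = 0.0957; called without vehicle replicate 3, where the adjusted p was 0.0129), and SOX9 by 0.24 (standard error 0.12, adjusted p = 0.200).

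The few FOXA2 counts in Act D-treated parental cells were set beside those of other genes typical of the uL3Δ-labelled libraries. Of all genes, 14 had at most 3 counts in the parental vehicle libraries together and at least 20 CPM on average in the Act D uL3Δ-labelled libraries, FOXA2 and the hepatic and lymphatic factor PROX1 among them. In the Act D libraries of parental cells they were at 0.345% to 2.38% of their level in the uL3Δ-labelled libraries, with a median of 0.590%, and FOXA2 was at 1.07%. The near absence with vehicle, by which the 14 were chosen, left only a rise possible. SOX2, which is outside this set, was at 1.33%. Reads or RNA of the other line in these libraries was not tested as a source of the FOXA2 counts.

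In the uL3Δ-labelled libraries the response to Act D was called for 0 of the 8 genes, against 11.9% of all genes tested. With edgeR 0 of the 8 had an unadjusted p under 0.05, and DESeq2 called 0. Replicate 1 with Act D differed more from replicates 2 and 3 (chi-square per degree of freedom 107 and 62.5) than these did from each other (13.0). The number called stayed at 0 without any single library. CDX2 and HNF4A passed the filter through the parental cells and were at or near the limit of detection in these libraries, where a response of either gene was not detectable at this depth. KLF5 went from 131.3 ± 18.0 to 126.2 ± 9.54 CPM (log2 difference -0.06, standard error 0.11, adjusted p = 0.794). GATA6 was at 10.4 ± 1.28 and 8.16 ± 1.25 CPM (-0.36, standard error 0.20, adjusted p = 0.263), FOXA2 at 24.8 ± 3.73 and 20.1 ± 2.87 CPM (-0.29, standard error 0.15, adjusted p = 0.248) and SOX2 at 6.54 ± 0.388 and 5.39 ± 1.07 CPM (-0.27, standard error 0.26, adjusted p = 0.556). SOX9 was at 28.9 ± 3.92 and 34.1 ± 4.85 CPM (0.25, standard error 0.13, adjusted p = 0.250).

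Whether the 2 lines differed in their response was tested as an interaction, in which 1 of the 7 genes other than FOXA2 was called, KLF5, against 6.53% of all genes tested. CDX2 and HNF4A were at or near the limit of detection in the uL3Δ-labelled libraries, and SOX2 was so in parental cells. For these genes a difference between the responses was hardly detectable (standard errors 0.74, 2.09 and 1.57). The Act D response of KLF5 was smaller in the uL3Δ-labelled libraries by 0.55 on the log2 scale (difference -0.55, standard error 0.15, adjusted p = 0.0368). This call was lost in 11 of 18 alternatives, where the adjusted p reached 0.0887: with library size alone, with the replicate block and without any single library except replicate 1 of parental vehicle, replicate 1 labelled uL3Δ with vehicle and replicate 2 labelled uL3Δ with Act D. For GATA6 the responses pointed in opposite directions, with a difference of -0.89 (standard error 0.29, adjusted p = 0.0753) that was called without vehicle replicate 3 of parental cells (adjusted p = 0.0153) and without a filter on low counts. For SOX9 the difference between the responses was 0.0047 (standard error 0.18, adjusted p = 1.00).

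**Figure D3:**
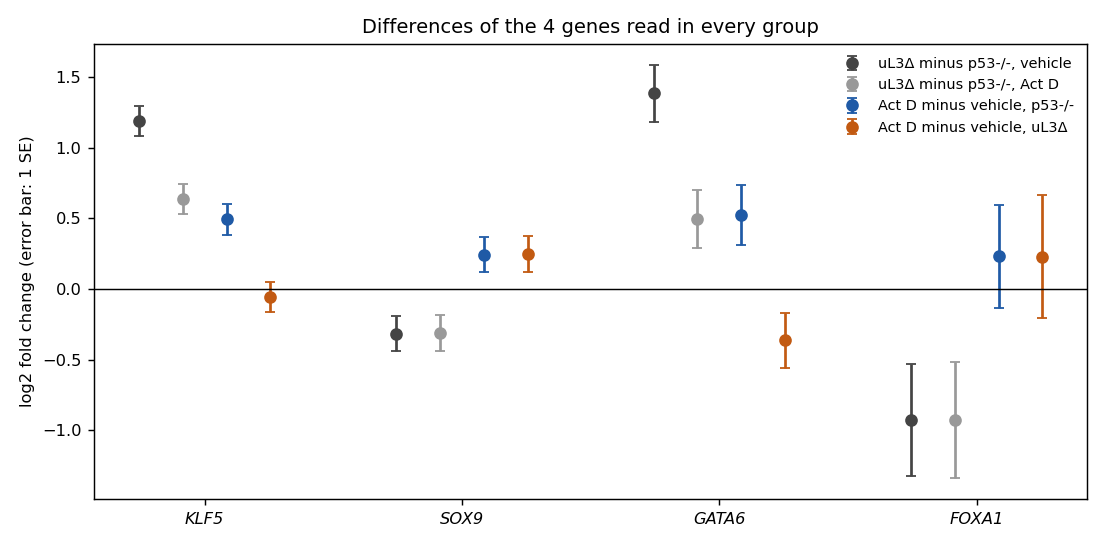
Differences on the log2 scale of the 4 genes read in every group, between the lines with vehicle and with Act D and between Act D and vehicle in each line; points are fitted values and error bars 1 standard error. KLF5 rises with Act D by 0.49 in parental cells and differs by -0.06 in the uL3Δ-labelled libraries, so that the difference between the lines is 1.19 with vehicle and 0.64 with Act D.

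The 9 genes were set beside 35 other transcription factor genes of gut and endoderm, of which 18 passed the filter on low counts. With vehicle 16 of the 18 were called (88.9%, against 71.3% of all genes tested), 9 of them higher in the uL3Δ-labelled libraries and 7 lower. The median log2 difference of the 18 was 0.20, against -0.02 over all genes tested. With Act D 15 were called (83.3%, against 70.4% of all genes tested), 9 higher and 6 lower (median 0.22, against -0.02). PROX1 was at 0.0216 ± 0.0374 CPM in parental cells and 24.6 ± 2.83 CPM in the uL3Δ-labelled libraries with vehicle (SD, n = 3 each; adjusted p = 2.91e-13). PPARG, a nuclear receptor of fat cells and colonocytes, was 3.87 higher on the log2 scale (standard error 0.11, adjusted p = 3.21e-15). NR5A2, a nuclear receptor of gut, pancreas and liver, was at 8.40 ± 0.859 CPM in parental cells and 0.200 ± 0.104 CPM in the uL3Δ-labelled libraries (adjusted p = 1.26e-10). FOXA3, the remaining member of the FOXA family, was lower by 2.43 (difference -2.43, standard error 0.30, adjusted p = 5.78e-07). With Act D HES1, a target of Notch signalling, was higher by 1.67 (standard error 0.14, adjusted p = 1.07e-08), PPARG by 3.79 (standard error 0.11, adjusted p = 6.36e-15) and PROX1 at 30.0 ± 3.74 CPM against 0.194 ± 0.169 CPM. The 17 genes that did not pass the filter included GATA4 and ASCL2, and SOX17 and CDX4, which had 0 counts in each library.

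Act D lowered 3 and raised 0 of these 18 genes in parental cells, or 16.7%, against 18.7% of all genes tested (median 0.08, against 0.02 over all genes tested). TCF7L2, the Wnt effector of the colon epithelium, fell from 55.9 ± 6.42 to 17.7 ± 3.88 CPM (log2 difference -1.66, standard error 0.16, adjusted p = 1.44e-06), and NR5A2 fell from 8.40 ± 0.859 to 4.06 ± 0.282 CPM (-1.05, standard error 0.22, adjusted p = 0.00294). In the uL3Δ-labelled libraries Act D lowered 1 and raised 0 of the 18 (5.56%, against 11.9% of all genes tested). The count was 0 with the replicate block and without vehicle replicate 3. The median over the list was 0.16 against 0.03, or 0.05 with genes at 0 counts in a group set to their limit. The interaction was called for 3 of the 18 (16.7%, against 6.53% of all genes tested), with a median of 0.15 against -0.01. Its count was 1 without parental vehicle replicate 3, without parental Act D replicate 2 or 3, or without vehicle replicate 2 labelled uL3Δ. TCF7L2 was at 16.3 ± 1.74 and 15.8 ± 3.57 CPM in the uL3Δ-labelled libraries, so that the responses differed by 1.62 (standard error 0.23, adjusted p = 0.000608), and ONECUT2, a cut-homeobox factor of liver and endocrine cells, differed by 0.79 (standard error 0.20, adjusted p = 0.0237; lost in 7 of 18 alternatives).

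**Figure D4:**
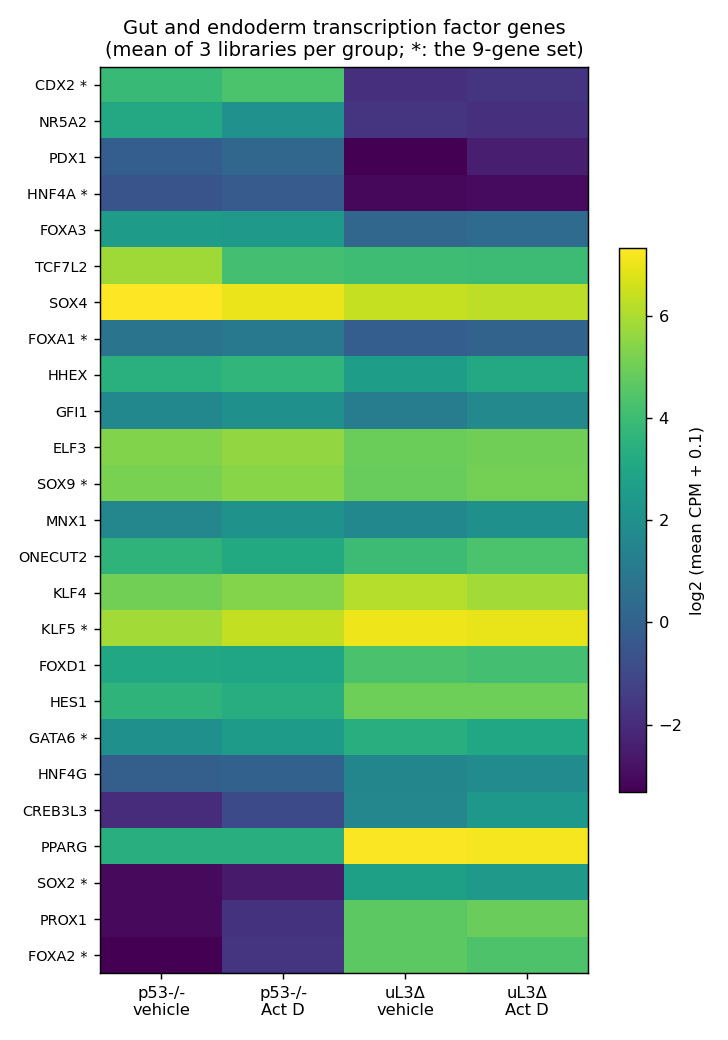
Mean level per group, as log2 of the mean CPM plus 0.1, of the 8 tested genes of the set (marked with an asterisk) and 17 of the 18 other gut and endoderm transcription factor genes that passed the filter, ordered by the difference between the lines with vehicle. CDX2, NR5A2, PDX1 and HNF4A stand at the top, with lower levels in the uL3Δ-labelled libraries, and SOX2, PROX1 and FOXA2 stand at the bottom, with higher levels.

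Of 39 intestinal epithelial genes, 13 passed the filter, and the others were not tested. VIL1, CDH17, LGALS4 and GPA33, classical targets of CDX2, had at most 5 counts in any library, while FABP1 had 0 in each. These genes were picked after their values were seen and do not stand for the list. HEPH and KRT20 differed in the direction of CDX2, with 114 and 42 counts in parental cells with vehicle over the 3 libraries. In the uL3Δ-labelled libraries with vehicle they had 0 and 2 counts. Genes that went the other way are given below. Other genes of the list were read well above the limit of detection, such as PLS1, a microvillus protein, at 34.1 ± 1.94 CPM and EPHB2, a receptor of the crypt base, at 29.8 ± 3.69 CPM in parental cells with vehicle. The summed level of the 39 genes was between 112 and 124 CPM in parental cells with vehicle and between 127 and 145 CPM in the uL3Δ-labelled libraries. A few genes made up most of these sums. In parental cells they were PLS1, EPHB2 and ESPN (29.3 CPM), and in the uL3Δ-labelled libraries PLS1 was the highest, at 67.0 CPM. With vehicle 32 of the 39 genes in parental cells and 30 in the uL3Δ-labelled libraries were under 1 CPM. With vehicle 13 of the 13 tested were called, against 71.3% of all genes tested, of which 6 were higher and 7 lower in the uL3Δ-labelled libraries. Their median was -0.31, against -0.02 over all genes tested. With Act D 12 of the 13 were called (92.3%, against 70.4% of all genes tested), 6 higher and 6 lower (median -0.28). Lower genes included CA2, carbonic anhydrase 2, which was at 12.1 ± 0.838 CPM in parental cells and 0.529 ± 0.165 CPM in the uL3Δ-labelled libraries with vehicle (log2 difference -4.54, standard error 0.39, adjusted p = 5.26e-10), and USH1C, a brush-border scaffold protein (-4.47, standard error 0.39, adjusted p = 4.93e-10). Higher genes included ANPEP, the brush-border aminopeptidase, at 0.177 ± 0.109 and 21.5 ± 1.56 CPM (6.89, standard error 0.52, adjusted p = 4.83e-13), and TFF3, the trefoil factor of goblet cells, at 0.0216 ± 0.0374 and 8.51 ± 1.47 CPM (adjusted p = 5.53e-10). The 4 genes named were also called with Act D in the same direction.

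Act D changed 0 of the 13 in parental cells, against 18.7% of all genes tested. There 3 had an unadjusted p under 0.05 with edgeR and DESeq2 called 0 (median 0.14, against 0.02). In the uL3Δ-labelled libraries Act D changed 2 of the 13, or 15.4%, against 11.9% of all genes tested (median 0.12, against 0.03). EPHB2 fell by 0.45 (difference -0.45, standard error 0.12, adjusted p = 0.0195; lost in 4 of 13 alternatives), and PLS1 rose by 0.33 (standard error 0.10, adjusted p = 0.0431; lost in 7 of 13). The interaction was called for 0 of the 13, against 6.53% of all genes tested, with 0 at an unadjusted p under 0.05 and 0 with DESeq2.

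Genes of neighbouring organs were examined because SOX2 and FOXA2 act in them. The counts below stand against 71.3% of all genes tested that were called between the lines with vehicle and 70.4% with Act D. For the Act D response these shares were 18.7% in parental cells and 11.9% in the uL3Δ-labelled libraries. Of 14 stomach epithelial genes 6 passed the filter, and with vehicle 4 of the 6 were higher and 1 lower in the uL3Δ-labelled libraries (median 1.52 against -0.02), with Act D 3 higher and 1 lower (median 1.87). With vehicle 13 of the 14 were under 1 CPM in parental cells, so that genes such as TFF1 passed the filter through the uL3Δ-labelled libraries. The directions and medians of this list therefore follow in part from the filter and are no result. Act D raised 1 of the 6 in parental cells, MUC1, which had 16 counts with vehicle and 40 with Act D over the 3 libraries. Its call was lost without any single library of either group, with library size alone, with no filter on low counts and with DESeq2. Act D changed 0 of the 6 in the uL3Δ-labelled libraries, where edgeR gave 0 at an unadjusted p under 0.05 and DESeq2 called 0. TFF1, the trefoil factor of the gastric surface, had 0 counts in parental cells with vehicle and was at 18.3 ± 3.28 CPM in the uL3Δ-labelled libraries (adjusted p = 4.85e-12), whereas ANXA10, an annexin of gastric epithelium, was lower by 4.13 (difference -4.13, standard error 0.25, adjusted p = 1.30e-11). CLDN18, a defining gastric claudin, had at most 2 counts in any library. Of 12 lung and oesophageal epithelial genes 3 keratin genes passed the filter and all 3 were lower in the uL3Δ-labelled libraries with either treatment (median -7.0 with vehicle, or -2.89 with genes at 0 counts set to their limit). In the uL3Δ-labelled libraries 0 of the 12 reached a mean of 1 CPM, so that the 3 passed the filter through the parental cells. Their common direction follows from the filter and is no result. KRT13 was at 10.6 ± 0.698 CPM in parental cells and had 0 counts in the uL3Δ-labelled libraries with vehicle (adjusted p = 9.93e-12). TP63, the factor of squamous epithelium, had at most 3 counts in any library. Of 14 liver genes 2 passed the filter, and TF, transferrin, was called with vehicle (0.73 higher in the uL3Δ-labelled libraries on the log2 scale). That call was lost with library size alone and without parental replicate 1 or 2 or replicate 1 or 3 labelled uL3Δ, and 0 of the 2 were called with Act D, where 0 had an unadjusted p under 0.05 and DESeq2 called 0.

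Of 8 pluripotency genes 3 passed the filter: POU5F1, LIN28B and SALL4. NANOG had at most 10 counts and LIN28A at most 4 counts in any library. LIN28B, an RNA-binding protein of stem and fetal cells, was at 0.0820 ± 0.0918 CPM in parental cells with vehicle and at 53.8 ± 3.79 CPM in the uL3Δ-labelled libraries (adjusted p = 6.92e-15). With vehicle 2 of the 3 were called, both higher, against 71.3% of all genes tested. With Act D 3 were called, 2 higher and 1 lower, POU5F1, against 70.4% of all genes tested. In parental cells each of the 8 genes had a mean under 1 CPM with either treatment, and LIN28B passed the filter through the uL3Δ-labelled libraries. The higher direction of LIN28B and SALL4 therefore follows at least in part from the filter and is no result. LIN28B fell with Act D in the uL3Δ-labelled libraries by 0.67 (difference -0.67, standard error 0.13, adjusted p = 0.00239). In parental cells it had 4 counts with vehicle and 20 with Act D over the 3 libraries, and the call of its response there was lost without vehicle replicate 1 or 2, without Act D replicate 3 and in the fit to these 2 groups alone. SALL4, a zinc-finger factor of stem cells, was at 0.453 CPM in parental cells and 2.63 CPM in the uL3Δ-labelled libraries with vehicle. SOX2 was thus read beside LIN28B and SALL4, while POU5F1, its usual partner, was at 0.423 CPM.

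**Figure D5:**
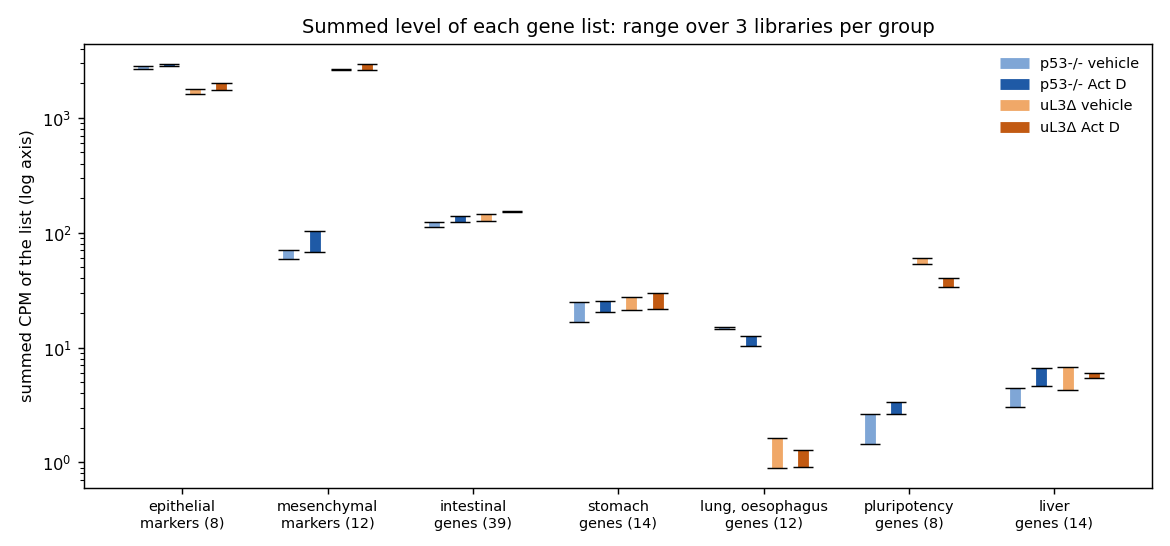
Summed CPM (log axis) of each gene list, as the range from the lowest to the highest of the 3 libraries of each group; the number of genes in a list is in brackets. The mesenchymal list lies between 58.5 and 70.9 CPM in parental cells with vehicle and between 2592 and 2672 CPM in the uL3Δ-labelled libraries. The sum of the intestinal list lies between 112 and 155 CPM in all 12 libraries and comes mostly from a few genes, with 30 to 32 of the 39 under 1 CPM in each group.

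The long non-coding genes beside the 9 genes were read as well. LINC00261 (ENSG00000259974, chromosome 20, 22547663 to 22578642, minus strand), whose start lies 2355 bases from the end of FOXA2, had 0 counts in the 3 vehicle libraries of parental cells and 99, 136 and 137 counts in those labelled uL3Δ, at least 38.7-fold more (adjusted p = 1.73e-10). With Act D the counts were 1, 2 and 0 against 110, 76 and 63, a ratio of 115 (95% counting interval 39.03 to 563, adjusted p = 5.74e-10). GATA6-AS1, which overlaps GATA6 on the opposite strand, did not pass the filter and had 0, 0 and 1 counts in parental cells and 6, 7 and 6 counts in the uL3Δ-labelled libraries with vehicle, the same direction as GATA6. HNF4A-AS1 had 0 counts in each library, SOX2-OT did not pass the filter, and SOX9-AS1 was not called between the lines (log2 difference 0.59 with either treatment). Whether reads were counted by strand is not given in the sources used here, so that reads of GATA6, HNF4A and SOX9 and of their antisense partners, and those of FOXA1 and the overlapping TTC6, cannot be told apart by strand.

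The genes whose pattern over the 12 libraries was most like that of each factor were found by the root-mean-square difference of mean-centred log2 CPM. For CDX2 these were FAM110C (0.29, Pearson r = 0.995), ATP2C2 and TSTD1, for FOXA2 IGFBP4 (0.28, r = 0.997), AMIGO2 and TM4SF1, and for SOX2 G0S2 (0.24, r = 0.996), MEIS1 and MARCKS. CDX2, FOXA2 and SOX2 were each read in 1 line and nearly silent in the other. For KLF5 they were KIAA0040 (0.093, r = 0.988), CREBRF and HERPUD1, for GATA6 HIC2 (0.16, r = 0.963), ZNHIT1 and CHMP4B, and for SOX9 NDUFC1 (0.12, r = 0.870), PRKACA and DCAF7. HNF4A was most like ARHGAP29-AS1 (0.28, r = 0.973), PSTPIP2 and LINC02482, and FOXA1 was most like IL11RA (0.23, r = 0.926), SLC15A2 and HSBP1L1. The 12 libraries share 4 groups and their depth, and the values are a description.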

How the data were processed

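RNA of 12 libraries (4 groups of 3) was sequenced, and the authors counted reads with RSEM (version 1.2.25) on hg38. The deposited values are expected counts and TPM per gene; for 1 library the authors deposited transcript values, with the percent of each gene's transcripts, and its counts were summed per gene. Strand use in counting is not given in the sources used here.

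Expected counts were rounded, filtered with edgeR's filterByExpr, scaled with TMM factors (0.847 to 1.15) and fitted over 12 libraries with the quasi-likelihood test of edgeR 4.0.16 in R 4.3.3 (common dispersion 0.0117). Of 60617 genes, 15692 were tested, and p-values were adjusted over all of them with a threshold of 0.05. The test was checked on simulated data, with few genes changed in a single group and the same dispersion for every gene. That setting differs from these lines, where 71.3% of all genes tested were called with vehicle, and the check does not cover it. A count of 3 per library was taken as the limit of detection, and counting intervals are exact at 95% and cover counting error only. Alternatives were library size alone, upper-quartile scaling, no filter, at least 1 CPM in 3 libraries, DESeq2 1.42.0, a replicate block, only the groups compared, and each library left out.

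The 9 genes and all lists (other gut and endoderm factors; intestinal, stomach, liver, lung and oesophageal, and pluripotency genes; neighbouring long non-coding genes; epithelial, mesenchymal, immune and endothelial markers) were chosen with earlier results of these data known. Genes of the lists were named if called, with a mean of at least 5 CPM in a group and no overlap between the groups. Up to 4 with the largest difference were named in each line comparison and up to 2 in each other comparison. CD68, LYZ, TF, MUC1, SALL4, POU5F1, HEPH, KRT20 and the genes at or near 0 counts were singled out after their values were seen. P-values measure the spread between these libraries. Some genes of the lists are counted but not reported here by name.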

Additional observations from a re-analysis of the deposited data

Results flagged for a closer look

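The interaction is the response to Act D in the uL3Δ-labelled libraries minus that in HCT 116p53-/- cells. With edgeR it was called for 6.53% of all genes tested and for 1 of the 7 genes of the set other than FOXA2. The list genes below are named because they were called, so that their number is no result. For KLF5 the difference was -0.55 on the log2 scale (adjusted p = 0.0368; lost in 11 of 18 alternatives). TCF7L2 differed by 1.62 (adjusted p = 0.000608), with a fall in HCT 116p53-/- cells alone passing the test, and ONECUT2 by 0.79 (adjusted p = 0.0237). The epithelial marker ESRP1 differed by 0.66 (adjusted p = 0.0252, lost in 6 of 18 alternatives). LIN28B differed by -2.99 (adjusted p = 0.0107; 0.0501 without Act D replicate 3 of HCT 116p53-/- cells), a value that rests on 4 counts with vehicle and 20 with Act D in HCT 116p53-/- cells, depends on the small constant added to counts and ranged from -4.15 to -2.49 without a single library. For FOXA2 the fitted difference was -4.89, which is a description and no test, since the gene was chosen by its absence from HCT 116p53-/- cells with vehicle, where it had 0 counts, and the value depends on the same constant.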

How the results depend on the processing

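In this paragraph and the next, line differences are counted over the 7 genes tested other than FOXA2, and the Act D responses and the interaction over the 8 genes with FOXA2, whose calls in HCT 116p53-/- cells and in the interaction are a description. Of the 38 values of the genes of the set, 20 kept their direction and their side of the threshold under each alternative run, and of 18 calls 11 were kept in each. The number of genes of the set called between the lines with Act D was 7 of 7, and 4 to 7 without a single library (4 without HCT 116p53-/- replicate 2 or uL3Δ-labelled replicate 3). The number called in the interaction was 2 of 8 (KLF5 and FOXA2), 1 with library size alone, 1 with the replicate block and 0 to 2 without a single library. Directions turned only for differences that were not called: the Act D response of KLF5 in uL3Δ-labelled libraries under upper-quartile scaling (0.0058), the interaction of FOXA1 with library size alone (0.014), upper-quartile scaling (0.028) and the replicate block (0.030), and that of SOX9 with no filter (-0.032) and DESeq2 (-0.0029). Without a single library the Act D differences in the uL3Δ-labelled libraries ranged from -0.35 to 0.60 for CDX2, -1.75 to 2.14 for HNF4A, -0.29 to 0.58 for FOXA1 and -0.17 to 0.0066 for KLF5. The interactions ranged from -0.77 to 0.19 for CDX2, -2.08 to 1.81 for HNF4A, -0.52 to 0.35 for FOXA1 and -0.12 to 0.11 for SOX9. The cause was not tested.

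Replicate numbers did not pair the samples: the correlation of same-numbered deviations lay between -0.348 and 0.178. With the replicate block 7, 5, 2, 0 and 1 genes of the set were called in the line differences with vehicle and Act D, the Act D responses of HCT 116p53-/- and uL3Δ libraries and the interaction.

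Over all genes, library size alone moved the split of the Act D response in HCT 116p53-/- cells from 1191 higher and 1748 lower to 551 and 2309, and in the uL3Δ-labelled libraries from 551 and 1318 to 227 and 1858. It moved the line difference with vehicle from 5501 and 5684 to 4202 and 6974 and its median over all genes from -0.02 to -0.26. Without a single library 1833 to 2312 genes were called for Act D in HCT 116p53-/- cells (2939 with all libraries), 1272 to 1709 in the uL3Δ-labelled libraries (1869) and 614 to 979 in the interaction (1025).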
